A study of Arabidopsis thaliana with 18 samples.

Results

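The response of bro1-1 seedlings to 4 h of abscisic acid (ABA) was set against that of wild type (WT), gene by gene, as a genotype by ABA interaction: the log2 fold change of ABA 4 h against mock in bro1-1 minus the same change in WT. A positive value means that the gene stood higher, or fell less, in bro1-1 than in WT once its mock level was taken off, and a negative value the reverse. The comparison used 12 of the 18 libraries of the series, 3 in each of WT mock, WT ABA 4 h, bro1-1 mock and bro1-1 ABA 4 h, and 20480 of the 32833 genes listed had enough counts to be tested. All groups were Arabidopsis Col-0 seedlings aged 2 weeks, kept at 0 µM ABA (mock) or treated with 100 µM ABA for 4 h, and RNA was taken from seedlings. A further 3 libraries of each genotype, treated with ABA for 2 h, served only where stated. The line bro1-1 carries a T-DNA insertion in the AtBro1 gene and stands for the mutant alone, since no other allele was sequenced. The labels give replicate numbers but not whether the libraries of a group came from separate plates or days, so the p-values measure the spread between these libraries.

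ABA is the hormone with which plants answer drought, salt and cold. It binds PYR/PYL receptors, which then hold back the clade A PP2C phosphatases, and the SnRK2 kinases so released switch on ABF bZIP factors and, through them, dehydration genes such as RD29A and RAB18. BRO1-domain proteins of yeast and animals work with the ESCRT machinery, which sorts membrane proteins into the vacuole or lysosome, and AtBro1 is a plant gene of this family.

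The 12 libraries held similar numbers of counts, but some of them stood apart in tissue or defence markers. Totals of RSEM expected counts ran from 15568034 to 17401994, so that 1 count was worth 0.0522 to 0.0628 CPM (counts scaled to library size with TMM factors). The 3 seed storage genes SESA1, CRA1 and OLEO1 summed to 339 CPM in bro1-1 mock replicate 3, where CRA1 (cruciferin) had 5177 counts, against at most 9.71 CPM in any other of the 12 libraries. The 23 nuclear photosystem and Rubisco genes summed to 35187 CPM in WT mock replicate 2 and 54418 in bro1-1 mock replicate 3, whereas the other 4 mock libraries lay between 81781 and 98401. WT ABA 4 h replicate 1 was the highest of its group for the salicylate gene PR1, at 144 CPM beside 23.6 and 6.28. In bro1-1 ABA 4 h, replicate 3 had a photosystem and Rubisco sum of 35705 CPM beside 53370 and 62045. Root markers other than PYK10 summed to 55.5 CPM in WT mock replicate 1, beside 19.7 and 13.7 in its group. In bro1-1 ABA 4 h replicate 2 they summed to 40.9 CPM, beside 14.1 and 24.8.

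**Figure D1:**
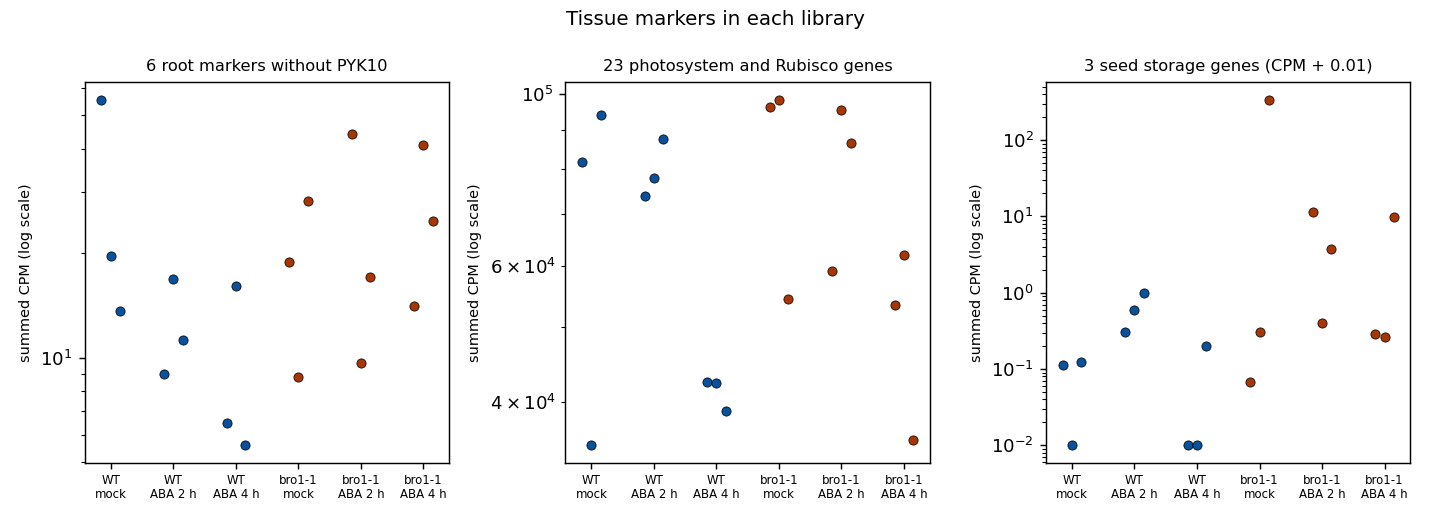
Summed level (CPM, log scale) of 6 root markers without PYK10, of 23 photosystem and Rubisco genes, and of 3 seed storage genes in each of the 18 libraries, WT in blue and bro1-1 in brown. The seed storage genes reached 339 CPM in 1 bro1-1 mock library, and for the root markers 2 of the 3 bro1-1 ABA 4 h libraries lay above every WT ABA 4 h library.

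No gene passed edgeR's quasi-likelihood test for a different response to ABA at 4 h in bro1-1 and WT. Of the 20480 genes, 0 were called for the interaction (0% of genes tested; a call needed an absolute log2 value over 1 besides an adjusted p, by Benjamini-Hochberg, under 0.05), and the smallest adjusted p was 0.830. At an unadjusted p under 0.05, 773 genes (3.77% of those tested) had a positive and 445 (2.17%) a negative interaction, together 1218. DESeq2, run on the same counts, called 5 genes (0.0198% of the 25227 with an adjusted p), and limma-voom called 0 with 1089 genes at an unadjusted p under 0.05. ABA itself changed many genes in each genotype. In WT, 2890 genes rose (14.1%) and 1699 fell (8.3%), and in bro1-1, 3245 rose (15.8%) and 1493 fell (7.29%). Between bro1-1 and WT, 3 genes (0.0146%) were called at mock and 3 (0.0146%) after ABA 4 h.

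The precision of the interaction depended on the level of the gene. The median half-width of its 95% interval was 0.77 on the log2 scale over all genes tested, 0.66 for the 10984 genes of 5 to 50 CPM and 0.62 for the 4392 genes of 50 CPM or more, but 2.14 for the 1422 genes under 1 CPM. For 9391 genes (45.9%) the whole interval lay between -1 and 1, so that a difference of more than 1 log2 unit between the genotypes lay outside it. The middle of the distribution was close to 0, with a median of 0.03, quartiles of -0.21 and 0.34, and 5% and 95% points of -0.72 and 1.32.

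**Figure D2:**
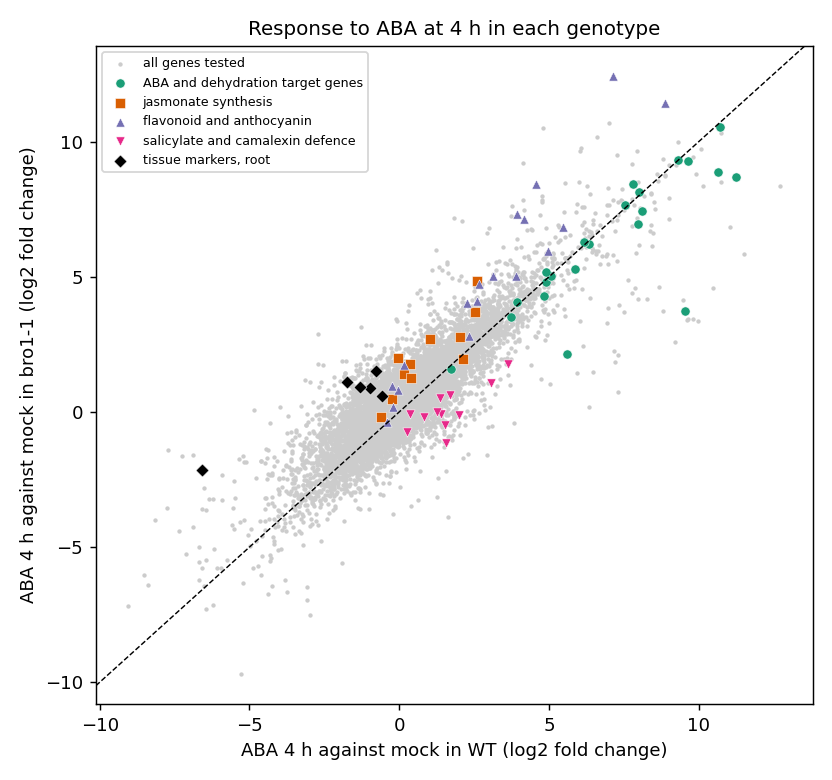
Log2 fold change of ABA 4 h against mock in WT (x axis) and in bro1-1 (y axis) for the 20480 genes tested, in grey, with 5 gene lists marked and the line of equal response dashed. ABA and dehydration targets lay on both sides of the line (median interaction -0.14), jasmonate synthesis, flavonoid and root genes mostly above it, and salicylate genes below it.

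AtBro1 itself was examined first, as a check of the labels. Its level was 21.4, 12.6 and 13.4 CPM in WT mock, 469.8, 278 and 542 in WT ABA 4 h, 12.7, 10.7 and 11.3 in bro1-1 mock, and 133, 181 and 134 in bro1-1 ABA 4 h. The gene rose with ABA in both genotypes, by 4.80 in WT and 3.76 in bro1-1 on the log2 scale, and the interaction was -1.04 (SE 0.38, 95% interval -1.86 to -0.22), with an unadjusted p of 0.0171 and an adjusted p of 0.830 from edgeR. All bro1-1 libraries were lower than all WT libraries after ABA 4 h (log2 -1.50, SE 0.27), while at mock the groups overlapped (log2 -0.45). Gene-level counts do not show on which side of the insertion the reads fell. AT1G17940, a related gene of Arabidopsis, had an interaction of -0.09 (SE 0.38, 95% interval -0.92 to 0.74). It stood at 26.5, 18.4 and 22.8 CPM in WT mock, 420.3, 281 and 540.5 in WT ABA 4 h, 22.1, 20.2 and 15.9 in bro1-1 mock, and 370.5, 382 and 228 in bro1-1 ABA 4 h. These values overlapped between the genotypes at mock and after ABA.

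The genes nearest to an interaction were taken from the DESeq2 calls, and the upstream sequences of 3 of them are shown with that of AtBro1 because their levels moved in different directions. Each window holds the 250 bases before the annotated start of the gene in RefSeq's TAIR10.1, read in the direction of the gene, 5′ to 3′. Capitals mark ACGTG, the core of the ABA-responsive element bound by ABF factors, and TTGAC, the core of the W-box bound by WRKY factors, on either strand, so that CACGT and GTCAA are also in capitals.
AtBro1 (minus strand, chr1:27595753-27596002): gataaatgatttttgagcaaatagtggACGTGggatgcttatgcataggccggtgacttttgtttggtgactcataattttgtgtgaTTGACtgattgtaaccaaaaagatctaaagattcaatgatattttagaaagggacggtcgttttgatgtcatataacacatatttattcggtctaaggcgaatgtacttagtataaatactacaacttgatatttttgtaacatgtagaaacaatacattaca
GDA1 (plus strand, chr1:4868096-4868345): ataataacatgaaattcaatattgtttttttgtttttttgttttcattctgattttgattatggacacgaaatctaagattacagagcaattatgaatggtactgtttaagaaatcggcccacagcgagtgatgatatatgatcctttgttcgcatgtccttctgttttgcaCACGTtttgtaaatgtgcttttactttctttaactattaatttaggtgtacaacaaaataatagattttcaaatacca
WRKY53 (minus strand, chr4:12393983-12394232): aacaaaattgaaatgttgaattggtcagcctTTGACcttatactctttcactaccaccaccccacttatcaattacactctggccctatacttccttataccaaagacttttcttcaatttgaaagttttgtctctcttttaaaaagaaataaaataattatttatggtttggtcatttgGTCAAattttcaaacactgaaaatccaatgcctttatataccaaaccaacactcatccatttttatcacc
MIOX4 (plus strand, chr4:13297445-13297694): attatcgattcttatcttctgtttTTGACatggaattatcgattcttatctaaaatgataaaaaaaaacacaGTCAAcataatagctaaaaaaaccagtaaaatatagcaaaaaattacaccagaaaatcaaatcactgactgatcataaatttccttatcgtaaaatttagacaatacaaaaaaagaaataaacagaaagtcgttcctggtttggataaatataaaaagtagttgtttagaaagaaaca

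The AtBro1 window held 1 match to the ABRE core and 1 to the W-box core, the GDA1 window 1 and 0, and the WRKY53 and MIOX4 windows 0 and 2 each. Over the 20416 tested genes with such a window, 24.2% held ACGTG and 45.2% held TTGAC, so that 1 match of either is common. The shares were 32.1% and 48.3% in the 240 genes of at least 5 CPM on average with a positive interaction over 1 at an unadjusted p under 0.05, and 31.9% and 54.3% in the 116 with a negative one below -1. The shares of 24.2% and 45.2% also cover genes under 5 CPM, so the sets are unlike in level and no excess is drawn from them. These matches describe letters in a window and were not tested as binding sites.

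GDA1 (AT1G14250), which encodes a nucleoside phosphatase of the GDA1/CD39 family, had the smallest interaction p in both edgeR and DESeq2. Its level was 1.25, 0.427 and 1.93 CPM in WT mock, 6.55, 8.08 and 4.64 in WT ABA 4 h, 1.16, 0.3 and 0.69 in bro1-1 mock, and 35.9, 58.8 and 45.7 in bro1-1 ABA 4 h. ABA raised it in both genotypes, and after ABA 4 h each bro1-1 library stood above each WT library. From PCR, the study reported this gene as lower in the mutant than in WT, without naming the treatment in that statement. The direction after ABA in the libraries used here was the reverse, and the reason was not tested. The interaction was 3.62 (SE 0.68, 95% interval 2.14 to 5.101), with an adjusted p of 0.830 in edgeR and 0.00167 in DESeq2. At 2 h, in libraries that the interaction does not use, GDA1 was 4.38, 11 and 6.5 CPM in WT and 7.95, 19.8 and 13.8 in bro1-1, and the groups overlapped (log2 0.93, SE 0.40).

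HRGP1 (AT3G54590), a hydroxyproline-rich cell wall protein, and AT5G43180, an uncharacterised membrane protein gene, were the other positive DESeq2 calls. HRGP1 was at 21.1, 16.8 and 8.74 CPM in WT mock, 3.7, 6.06 and 4.64 in WT ABA 4 h, 7.12, 3 and 7.47 in bro1-1 mock, and 6.76, 18.1 and 15.5 in bro1-1 ABA 4 h. In WT the ABA libraries lay below the mock libraries, while in bro1-1 they overlapped, and the mock level was already lower in bro1-1 than in WT. The interaction of HRGP1 was 2.91 (SE 0.63, 95% interval 1.53 to 4.28), with an adjusted p of 0.0479 in DESeq2. Its neighbour AT3G54580, another extensin gene of like repeats, had 2.795 (SE 0.71, 95% interval 1.25 to 4.34). Reads may be shared between such repeats, so the split between them is uncertain.

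For AT5G43180, the levels were 2.61, 2.51 and 2.84 CPM in WT mock, 1.39, 3.83 and 2.01 in WT ABA 4 h, 0.984, 0.78 and 2.3 in bro1-1 mock, and 7.14, 7.8 and 10.7 in bro1-1 ABA 4 h. The bro1-1 ABA libraries were above all others, and the interaction was 2.798 (SE 0.62, 95% interval 1.45 to 4.15), with an adjusted p of 0.0494 in DESeq2. AT5G43180 had 1.66, 3.26 and 4.71 CPM in WT and 6.4, 4.7 and 6.13 in bro1-1 at 2 h, which overlapped.

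WRKY53 (AT4G23810), a transcription factor known from leaf senescence, and MIOX4 (AT4G26260), which oxidises myo-inositol to glucuronic acid, were the negative DESeq2 calls. WRKY53 stood at 2.45, 2.13 and 1.99 CPM in WT mock, 62, 23.4 and 51.2 in WT ABA 4 h, 4.69, 1.86 and 5.63 in bro1-1 mock, and 16.2, 12.2 and 10.3 in bro1-1 ABA 4 h. Each ABA library exceeded each mock library in both genotypes, and the WT ABA libraries were the highest. The interaction of WRKY53 was -2.67 (SE 0.57, 95% interval -3.92 to -1.42), with an adjusted p of 0.0466 in DESeq2. At 2 h it stood at 16.2, 12.7 and 12.8 CPM in WT and 14.5, 6.41 and 7.41 in bro1-1, again overlapping.

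The levels of MIOX4 were 0.574, 1.55 and 0.908 CPM in WT mock, 1.33, 2.02 and 0.502 in WT ABA 4 h, 5.38, 5.82 and 3.96 in bro1-1 mock, and 0.443, 0.749 and 0.111 in bro1-1 ABA 4 h. All of them were low. The bro1-1 mock libraries stood above all others, and the interaction was -3.87 (SE 0.86, 95% interval -5.75 to -1.99), with an adjusted p of 0.0466 in DESeq2. It came with a mock difference of 2.31 (SE 0.58) as well as one of -1.56 (SE 0.64) after ABA. Among the 5 DESeq2 calls the sign of the interaction was kept under all alternatives that gave a value, including without each library in turn.

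**Figure D3:**
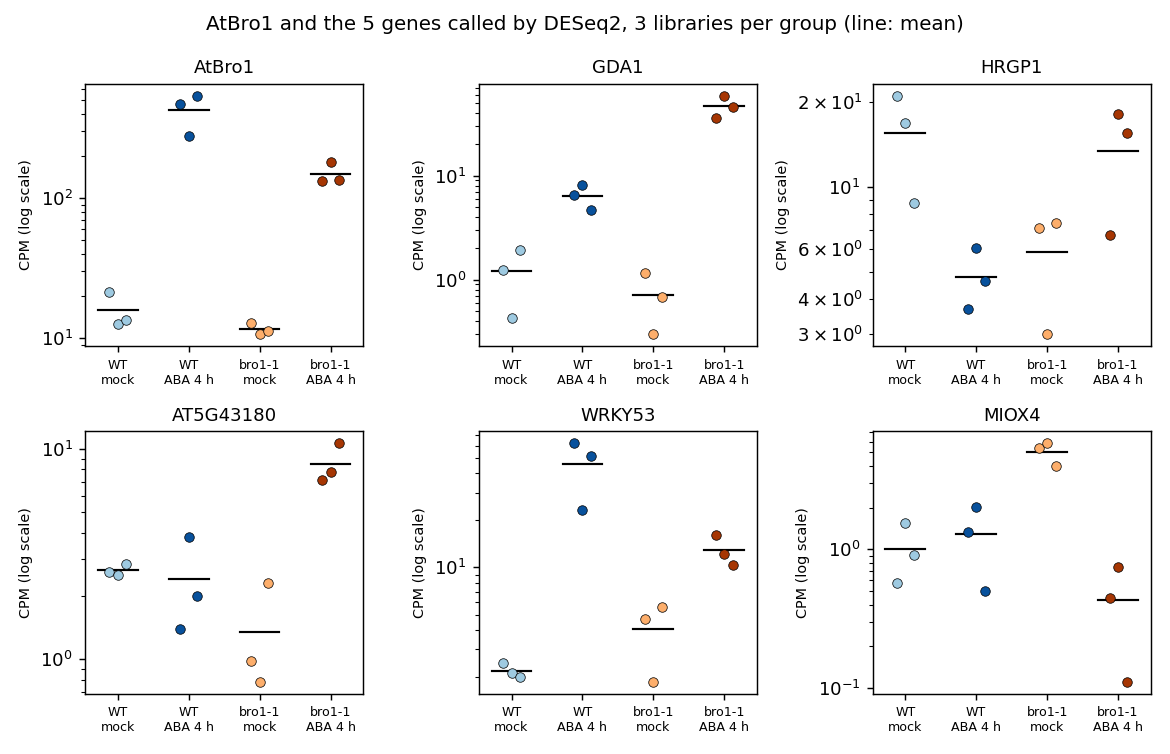
CPM (log scale) of AtBro1 and the 5 genes called by DESeq2 in the 3 libraries of each of the 4 groups, with the mean as a line. GDA1 ran from 35.9 to 58.8 CPM in bro1-1 ABA 4 h and from 4.64 to 8.08 in WT ABA 4 h, and MIOX4 was highest in bro1-1 mock.

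Among genes of at least 5 CPM on average, the positive interactions with the smallest p in edgeR, beside GDA1 and the extensins, included several metabolic and membrane genes. CYP710A2, a sterol C-22 desaturase, had 1.56 (SE 0.34, 95% interval 0.83 to 2.297). Its level was 12.8, 9.44 and 11.9 CPM in WT mock, 8.43, 9.09 and 8.29 in WT ABA 4 h, 9.38, 6.06 and 11.9 in bro1-1 mock, and 17.2, 18.5 and 24.2 in bro1-1 ABA 4 h. ABA libraries lay below mock in WT and above mock in bro1-1. The copper amine oxidase gene AT1G31710 had the same order of groups, at 23.3, 16 and 25.7 CPM in WT mock and 9.76, 14 and 8.35 in WT ABA 4 h, but 18.9, 15.2 and 21.3 in bro1-1 mock and 26.1, 23.4 and 28 in bro1-1 ABA 4 h, with an interaction of 1.53 (SE 0.33, 95% interval 0.80 to 2.25).

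CSLA10, of the cellulose synthase-like A family, rose with ABA in both genotypes. Its level was 0.574, 1.23 and 2.16 CPM in WT mock, 12.8, 13.7 and 17.45 in WT ABA 4 h, 0.984, 0.9 and 1.09 in bro1-1 mock, and 45.5, 34.3 and 50.5 in bro1-1 ABA 4 h. The interaction of CSLA10 was 2.00 (SE 0.49, 95% interval 0.93 to 3.07). NLM1, a channel protein of the NOD26-like aquaporins, fell in WT from 13.1, 7.47 and 11.6 to 1.46, 2.92 and 1.76 CPM, while bro1-1 had 10.2, 5.7 and 10.4 at mock and 6.26, 6.8 and 5.27 after ABA, and its interaction was 1.88 (SE 0.46, 95% interval 0.87 to 2.89). The others chosen by the same rule were AT1G52070 (a lectin, 3.60), AT1G06620 (a 2-oxoglutarate-dependent oxygenase, 2.22) and AT3G27880 (uncharacterised, 1.12).

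On the negative side, ELF4, part of the evening complex of the circadian clock, stood out by its level. Its level was 17.64, 20 and 16.1 CPM in WT mock, 276, 197 and 226 in WT ABA 4 h, 28.5, 37.3 and 25 in bro1-1 mock, and 176, 161 and 111 in bro1-1 ABA 4 h. It rose with ABA in both genotypes, was lower in WT than in bro1-1 at mock and higher in WT after ABA, and its interaction was -1.37 (SE 0.30, 95% interval -2.02 to -0.72). Over the 12 clock genes listed the median interaction was 0.05, with PRR3 at -1.01 and PRR9 at 1.92. At an unadjusted p under 0.05, 2 of 12 were negative and 0 positive, against 2.17% and 3.77% of all genes. AT1G72060, annotated as a serine-type endopeptidase inhibitor, was at 18, 5.85 and 8.03 CPM in WT ABA 4 h against 2.27, 2.43 and 1.44 in bro1-1 ABA 4 h from overlapping mock levels (23.8, 29.9 and 26.8 in WT, 32, 23.8 and 21.8 in bro1-1), with an interaction of -2.29 (SE 0.51, 95% interval -3.39 to -1.18).

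AT1G27100, annotated as an actin cross-linking protein, had opposite directions of response in the genotypes. Its level was 69.2, 92.4 and 72.3 CPM in WT mock, 143, 96.8 and 108 in WT ABA 4 h, 88.3, 103 and 99.4 in bro1-1 mock, and 74.8, 60.5 and 58.4 in bro1-1 ABA 4 h. Its interaction was -1.13 (SE 0.25, 95% interval -1.68 to -0.58). The remaining negative genes of this rule were PIMT2, which repairs damaged aspartyl residues (-1.45), PIT1, a RING-type zinc finger protein (-1.43), the protein kinase gene AT3G57770 (-1.31), AT3G13062 (-1.01), AT1G80180 (-1.37) and AT1G22890 (-1.82). All 20 genes of the rule had an adjusted p of 0.830 in edgeR.

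The leading genes as a group were looked at in the 2 h libraries, none of which enter the interaction at 4 h. Of the 240 genes with a positive interaction over 1 (unadjusted p under 0.05, at least 5 CPM on average), 216 (90%) were higher in bro1-1 than in WT after ABA 2 h, with a median log2 difference of 0.57. Of the 116 with a negative interaction below -1, 104 (89.7%) were lower, with a median of -0.54. Over the 15370 genes of at least 5 CPM tested at 2 h, 46.5% were higher and 53.5% lower. Genes share libraries and move together, so these shares are a description and not a test. They ranged from 82.1% to 92.2% over the alternatives and with each 2 h library left out. Root markers were also higher in bro1-1 at 2 h, in 6 of 6 genes by the fitted difference, but their sums without PYK10 overlapped. These were 44.1, 9.65 and 17.1 CPM in bro1-1 and 8.94, 16.8 and 11.2 in WT. The part of root markers in the shares was not tested.

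At 4 h itself the difference between the genotypes was larger after ABA than at mock for 218 (90.8%) of the 240 positive and 102 (87.9%) of the 116 negative genes, against 62.4% of all genes of at least 5 CPM. The median difference of bro1-1 from WT was -0.31 at mock and 1.24 after ABA for the positive genes, and 0.37 and -0.97 for the negative ones. These counts use the libraries by which the genes were chosen and carry no test.

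The lists of the core ABA pathway had median interactions near 0, but single members were measured less closely. The whole 95% interval lay between -1 and 1 for 2 of 9 receptors (22.2%), 4 of 9 PP2C genes (44.4%), 5 of 10 SnRK2 genes (50%), 4 of 7 ABF and ABI5 factors (57.1%) and 1 of 22 target genes (4.55%), against 45.9% of all genes. A larger difference in the other members is thus not excluded by their intervals. Of the 9 ABA receptor genes tested, 0 had an unadjusted p under 0.05, and their median interaction was -0.09. With ABA 6 of 9 fell in each genotype, against 8.3% of all genes tested in WT and 7.29% in bro1-1. PYL4 was among them. Its level was 149.6, 137 and 137 CPM in WT mock, 7.58, 8.29 and 2.64 in WT ABA 4 h, 107, 125 and 118 in bro1-1 mock, and 5.76, 5.62 and 9.15 in bro1-1 ABA 4 h. Its interaction was 0.44 (SE 0.45, 95% interval -0.55 to 1.44). The receptor genes PYR1, PYL5 and PYL6 had -0.69, -0.53 and 0.98.

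All 9 clade A PP2C genes rose with ABA in both genotypes, against 14.1% of all genes tested in WT and 15.8% in bro1-1. Their median interaction was -0.10. ABI1, a phosphatase that restrains the SnRK2 kinases, stood at 826, 624 and 927 CPM in WT ABA 4 h against 796, 862 and 636 in bro1-1 ABA 4 h, and its interaction was 0.00 (SE 0.46). HAI1, another of them, reached 849, 536 and 900.2 CPM in WT and 608, 642 and 469.9 in bro1-1, with an interaction of 0.13. HAI3 had the only unadjusted p under 0.05 in the list, but its mock counts were 0 in each WT library and 0, 2 and 5 in bro1-1, so its fitted value rests on the floor and no fold is given. After ABA 4 h HAI3 was at 36.7, 54.9 and 49.9 CPM in WT and 38.9, 57.7 and 39.3 in bro1-1.

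The 10 SnRK2 kinases had a median of -0.07. At an unadjusted p under 0.05, 1 of 10 was below 0, against 2.17% of all genes. This was SNRK2.3, one of the kinases that carry the ABA signal, at -0.66 (SE 0.29, 95% interval -1.30 to -0.01), and SNRK2.2, its close partner, had -0.47 (SE 0.26, 95% interval -1.04 to 0.09). The 7 ABF and ABI5 bZIP factors tested had a median of 0.06 and 0 at an unadjusted p under 0.05. ABF3 rose by 3.98 in WT and 4.25 in bro1-1 on the log2 scale, and ABF4 had a response of 1.05 in WT and 0.95 in bro1-1.

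Among the 22 ABA and dehydration target genes, 21 rose in WT and 20 in bro1-1, against 14.1% and 15.8% of all genes tested. The median interaction was -0.14, with 2 of 22 at an unadjusted p under 0.05, both negative, against 2.17% of all genes. Without WT mock replicate 1 that median was -0.88. RD29A, the usual marker of this response, ran to high levels in both genotypes. It was at 47.1, 3.52 and 14.9 CPM in WT mock, 3860.1, 2786 and 5131 in WT ABA 4 h, 33.4, 21.5 and 7.76 in bro1-1 mock, and 3806, 4812 and 3399.9 in bro1-1 ABA 4 h. Its mock libraries were widely spread, and the interaction was 0.13 (SE 1.01, 95% interval -2.07 to 2.33), or -1.12 without WT mock replicate 1. The dehydrin gene COR47 was tighter, with -0.25 (SE 0.42), and RAB18 (AT5G66400) had -0.56 (SE 0.57, 95% interval -1.80 to 0.67), or -0.12 without bro1-1 mock replicate 3. KIN2 had -0.68 and COR15A -0.15 (-1.10 and -0.98 without WT mock replicate 1); together with RD29A and COR47 they were the most abundant genes called upward in both genotypes, while the aquaporin gene TIP2, with 0.04, was the most abundant of the genes called downward in both.

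The 2 targets at an unadjusted p under 0.05 were EM1, a late embryogenesis protein of seeds, and XERO1, a dehydrin, both with few mock counts. EM1 had 0, 0 and 0 CPM in WT mock, 5.15, 5.69 and 4.83 in WT ABA 4 h, 0, 0 and 1.55 in bro1-1 mock, and 8.47, 3.99 and 7.38 in bro1-1 ABA 4 h. The library with EM1 at mock was the one with the seed storage transcripts. Without bro1-1 mock replicate 3 the fitted interaction of EM1 turned from -5.82 to 0.36, and no fold is drawn from either value since the other mock libraries held 0 counts. XERO1 stood at 0.405, 0 and 1.61 CPM in bro1-1 mock, highest in the same library, and its interaction was -3.43, with values from -6.86 without WT mock replicate 1 to -1.75 without bro1-1 mock replicate 3. In WT mock XERO1 averaged 0.07 CPM (SD 0.12), so these values rest on the floor as well and no fold is drawn from them.

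The ABA genes that the study followed by PCR were near 0 as a panel, with a median interaction of -0.14 over 14 genes. NCED3, which catalyses a committed step of ABA synthesis, was at 17.5, 18.5 and 19.1 CPM in WT ABA 4 h against 32.7, 25.8 and 43.2 in bro1-1 ABA 4 h, from 2.4, 0.64 and 3.4 in WT mock and 3.47, 2.46 and 1.32 in bro1-1 mock, and its interaction was 0.74 (SE 0.63, 95% interval -0.63 to 2.12). Values of the others were 0.46 for ABA1, 0.33 for ABA2, -0.19 for AAO3, -0.09 for ABI2, 0.12 for EM6, -1.77 for RD29B and -0.39 for DREB2B. Without the library with the seed storage transcripts, bro1-1 mock replicate 3, the values of EM6 and RD29B were 4.21 and 0.01. Of the 12 tested ABA synthesis and breakdown genes only CYP707A3, an ABA 8'-hydroxylase, had an unadjusted p under 0.05. Its value was negative, as for 2.17% of all genes at that threshold. CYP707A3 was at 5.69, 3.84 and 3.23 CPM in WT mock, 87.1, 48.6 and 153 in WT ABA 4 h, 3.88, 2.46 and 13.2 in bro1-1 mock, and 44.4, 49.2 and 36.8 in bro1-1 ABA 4 h. The interaction of CYP707A3 was -1.73 (SE 0.76, 95% interval -3.39 to -0.07), the groups after ABA overlapped, and without the 2 mock libraries with low photosystem transcripts the value was -0.65.

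Jasmonate synthesis had the highest median interaction among the hormone lists. All lists were chosen with earlier results of these data known, so the shares within them are a description and not a test. Of the 11 jasmonate synthesis genes tested, 10 had a positive interaction, against 53.5% of all genes. An unadjusted p under 0.05 was reached by 6 (54.5%) of them, against 3.77% of all genes, and the median was 1.16. Without bro1-1 ABA 4 h replicate 3 the median was 0.70, and 4 to 8 of the genes were at an unadjusted p under 0.05 as each library was left out, fewest without WT ABA 4 h replicate 3. ABA raised 5 of 11 in WT and 9 of 11 in bro1-1, against 14.1% and 15.8% of all genes tested. Jasmonate is made from plastid lipids by LOX2, AOS and AOC enzymes, then by OPR3 in the peroxisome, and is joined to isoleucine by JAR1. LOX2 was at 109, 7.68 and 55.2 CPM in WT mock, 304, 356 and 339 in WT ABA 4 h, 86.5, 38.8 and 16.5 in bro1-1 mock, and 1172, 1423 and 1325 in bro1-1 ABA 4 h. Both genotypes rose, and every bro1-1 ABA library stood above every WT ABA library. The interaction of LOX2 was 2.28 (SE 1.01, 95% interval 0.07 to 4.49), or 1.42 without WT mock replicate 1. The lowest mock value of each genotype belonged to the libraries with few photosystem transcripts, WT mock replicate 2 and bro1-1 mock replicate 3, and without these the interaction of LOX2 was 2.36 and the median of the list 1.298.

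AOS, which acts after LOX2, gave a like pattern with less spread at mock. AOS stood at 44.1, 17.1 and 32.5 CPM in WT mock, 53.4, 61.3 and 69.5 in WT ABA 4 h, 36.7, 24.5 and 28.6 in bro1-1 mock, and 119, 153 and 289.7 in bro1-1 ABA 4 h. Its interaction was 1.70 (SE 0.51, 95% interval 0.58 to 2.81), with an unadjusted p of 0.0062 and an adjusted p of 0.830 in edgeR. The 4 AOC genes had 2.02 (AOC1), 0.77 (AOC2), 1.43 (AOC3) and 0.70 (AOC4), OPR3 had 1.27 (SE 0.48, 95% interval 0.22 to 2.32) and JAR1 0.86 (SE 0.31, 95% interval 0.19 to 1.53). Without bro1-1 ABA 4 h replicate 3 the values were 0.61 for OPR3, 0.50 for JAR1 and 0.93 for AOC3, and AOC2 was at 0.08 without WT mock replicate 1. LOX4 was the single negative member, at -0.18 (SE 0.88), and ran from -1.43 without bro1-1 ABA 4 h replicate 3 to 0.21 without bro1-1 ABA 4 h replicate 2. At 2 h all 11 genes were higher in bro1-1 than in WT, with a median log2 difference of 0.61; LOX2 was 323, 618 and 185 CPM in WT and 908, 982 and 801 in bro1-1.

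Jasmonate response genes followed in smaller measure. Of 18 tested, 15 were positive, against 53.5% of all genes, and 7 (38.9%) of them had an unadjusted p under 0.05, against 3.77%. The median was 0.71, or 0.36 without bro1-1 ABA 4 h replicate 3. The count at an unadjusted p under 0.05 depended on the libraries and ran from 2 (without WT mock replicate 3, WT ABA 4 h replicate 3 or bro1-1 ABA 4 h replicate 3) to 10 (without bro1-1 ABA 4 h replicate 2). VSP1, a vegetative storage protein and a usual readout of jasmonate, was among them. Its level was 18.22, 6.99 and 14.4 CPM in WT mock, 53.7, 67.9 and 44.2 in WT ABA 4 h, 18.5, 11.4 and 17.1 in bro1-1 mock, and 152, 188 and 249 in bro1-1 ABA 4 h. The interaction of VSP1 was 1.61 (SE 0.46, 95% interval 0.61 to 2.62). VSP2, its close relative, had 1.44 (SE 0.60, 95% interval 0.14 to 2.75), with 275, 376 and 224 CPM in WT ABA 4 h against 969.7, 912 and 1051 in bro1-1 ABA 4 h. Among the JAZ repressors, JAZ3 had 0.97 (SE 0.29, 95% interval 0.34 to 1.60) and JAZ9 1.42 (SE 0.58, 95% interval 0.17 to 2.68) (0.72 without bro1-1 ABA 4 h replicate 3), while JAZ1, JAZ12 and JAZ11 had 0.35, 0.07 and -0.28. The myrosinase-binding proteins MBP1 and MBP2 had 2.32 and 1.99, and PDF1.2, a defensin gene of the other jasmonate branch, 0.12 (SE 1.21).

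**Figure D4:**
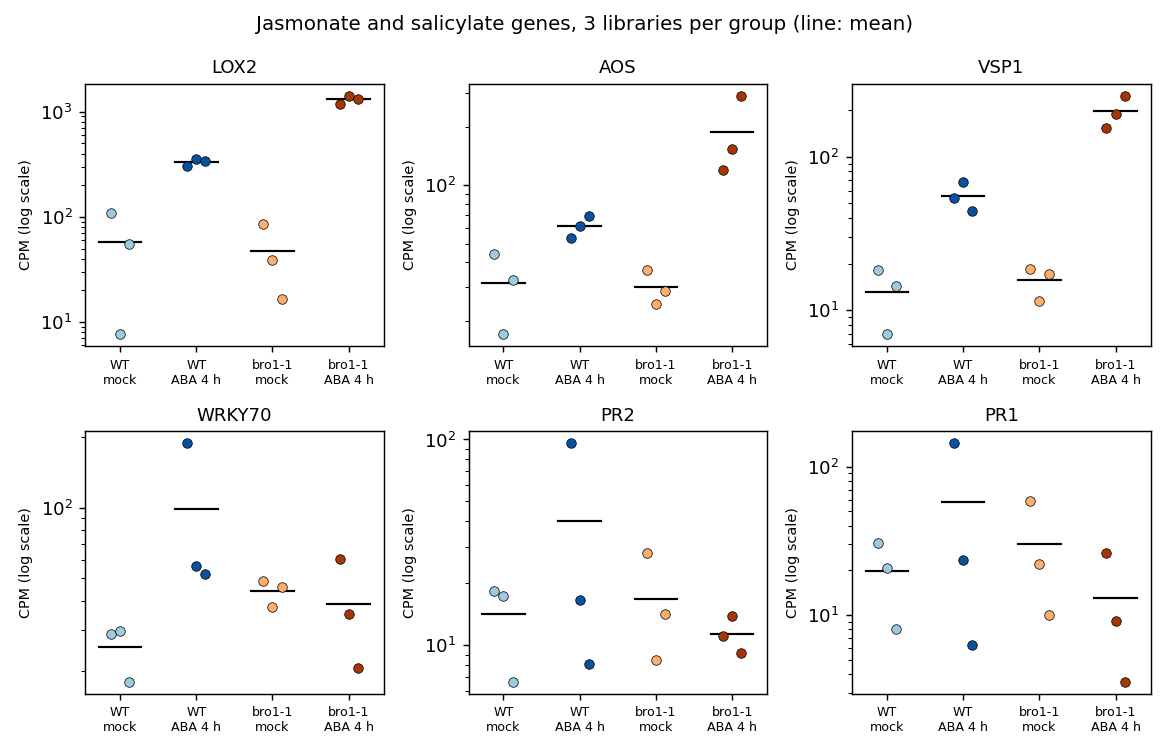
CPM (log scale) of 3 jasmonate genes (top) and 3 salicylate genes (bottom) in the 3 libraries of each of the 4 groups, with the mean as a line. For LOX2, AOS and VSP1 the bro1-1 ABA libraries lay above the WT ABA libraries, and for PR1 and PR2 the high mean of WT ABA 4 h came from replicate 1.

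Flavonoid and anthocyanin genes were positive in 18 of 18 cases, against 53.5% of all genes, and 6 (33.3%) had an unadjusted p under 0.05, against 3.77%. Their median was 1.53, or 1.297 without the 4 genes that had at most 3 counts in every library of some group. As each library was left out, 1 to 10 of these genes were at an unadjusted p under 0.05, fewest without WT mock replicate 1 and most without WT mock replicate 2. ABA raised 13 of the 18 in each genotype, against 14.1% of all genes tested in WT and 15.8% in bro1-1. At 2 h 14 of the 17 with a value were higher in bro1-1 than in WT, with a median log2 difference of 0.29. PAP1, the MYB factor that switches on anthocyanin synthesis, had almost no counts at mock in either genotype, so no fold is given for its interaction. It was at 0.261, 0 and 0 CPM in WT mock, 10.6, 13.1 and 16.5 in WT ABA 4 h, 0, 0 and 0 in bro1-1 mock, and 30.5, 38.5 and 46 in bro1-1 ABA 4 h. After ABA 4 h the bro1-1 libraries were above the WT libraries, by 1.54 (SE 0.37) on the log2 scale. GSTF12, which helps to carry anthocyanin into the vacuole, likewise had 2, 1 and 0 counts in bro1-1 mock, and after ABA stood at 6.97, 12.3 and 12.2 CPM in WT and 23, 13.4 and 27.6 in bro1-1.

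The enzymes of the pathway differed in spread. FLS1, flavonol synthase, had 2.07 (SE 0.94, 95% interval 0.03 to 4.11), DFR, dihydroflavonol reductase, 2.97 (SE 1.35, 95% interval 0.02 to 5.92) and UGT75C1, an anthocyanin glucosyltransferase, 1.92 (SE 0.80, 95% interval 0.18 to 3.67). Without WT mock replicate 1 these were 0.87, 1.58 and 1.31, in that order. UGT75C1 was at 0.992, 0.373 and 0.397 CPM in WT mock, 2.85, 6.81 and 5.4 in WT ABA 4 h, 0.463, 0.9 and 0.172 in bro1-1 mock, and 17.2, 9.42 and 21.9 in bro1-1 ABA 4 h. CHS, chalcone synthase, stood at 107, 177 and 97.8 CPM in WT ABA 4 h against 189.8, 195 and 326 in bro1-1 ABA 4 h, but its mock libraries were 42.8, 1.49 and 20.8 in WT and 19, 22.6 and 2.24 in bro1-1, and its interaction was 1.49 (SE 1.23, 95% interval -1.19 to 4.18) with an unadjusted p of 0.249 in edgeR, or 0.53 without WT mock replicate 1. PAP2, another MYB factor of the pathway, overlapped between the genotypes after ABA.

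Glucosinolate genes showed many small positive values. Of 13, 12 were positive, against 53.5% of all genes, and 2 (15.4%) of them had an unadjusted p under 0.05, against 3.77%. The median was 0.86. ABA raised 1 of 13 in WT and 8 of 13 in bro1-1, against 14.1% and 15.8% of all genes tested. The count at an unadjusted p under 0.05 was 0 in 5 of the 12 fits that left out a library, among them those without WT mock replicate 1 and WT ABA 4 h replicate 3, and 7 without bro1-1 mock replicate 3. CYP83A1, of the aliphatic branch, had 0.81 (SE 0.32, 95% interval 0.10 to 1.51). CYP83A1 was at 46.4, 46.5 and 30.8 CPM in WT mock, 48.8, 61.1 and 49.5 in WT ABA 4 h, 44.2, 36.7 and 56 in bro1-1 mock, and 97.7, 77.7 and 128 in bro1-1 ABA 4 h. MYB28, the main regulator of that branch, had 0.69 (SE 0.31, 95% interval 0.01 to 1.36), and MYB51, a regulator of the indolic branch, was the single negative member, at -0.99, or -0.42 without bro1-1 mock replicate 3. At 2 h all 13 were higher in bro1-1 than in WT, with a median log2 difference of 0.78.

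**Figure D5:**
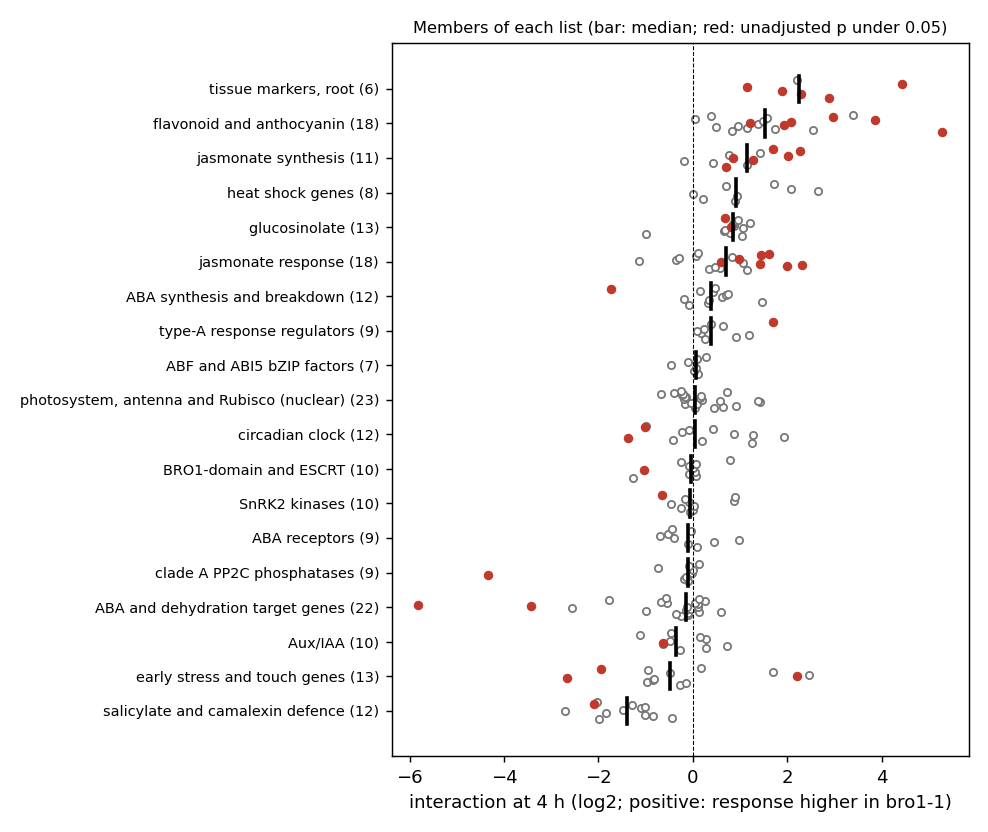
Interaction at 4 h (log2, x axis) of each tested gene in 19 gene lists, with the number tested in brackets, the list median as a bar and genes at an unadjusted p under 0.05 in red. Medians ran from -1.39 for salicylate and camalexin defence to 2.25 for root markers, and those of the receptor, phosphatase, kinase and ABF lists lay within 0.1 of 0.

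Salicylate and camalexin defence genes took the opposite sign, in 12 of 12 cases, with a median of -1.39, but only WRKY70 had an unadjusted p under 0.05. Over all genes tested, 53.5% were positive, and 2.17% were negative at an unadjusted p under 0.05. WRKY70, a factor that favours salicylate over jasmonate responses, was at 28.9, 29.6 and 18 CPM in WT mock and 188, 56.1 and 52.1 in WT ABA 4 h, and in bro1-1 at 48.7, 37.8 and 45.6 at mock and 60.4, 35 and 20.6 after ABA. Its interaction was -2.10 (SE 0.68, 95% interval -3.59 to -0.61). PR1, a marker of salicylate signalling, was at 30.7, 20.8 and 8.11 CPM in WT mock, 144, 23.6 and 6.28 in WT ABA 4 h, 58.6, 22.3 and 9.94 in bro1-1 mock, and 26.3, 9.17 and 3.55 in bro1-1 ABA 4 h. Within every group PR1 was highest in replicate 1 and lowest in replicate 3, an order that WRKY70 had after ABA but not at mock. The interaction of PR1 was -2.72 (SE 1.45, 95% interval -5.88 to 0.44), and that of PR2, a glucanase, -2.04 (SE 1.06, 95% interval -4.36 to 0.29). WT ABA 4 h replicate 1 was the highest library of its group for WRKY70, PR1 and PR2, and without it the median of the list was -0.19, the interaction of WRKY70 was -1.25, that of PR1 -0.80 and that of PR2 -0.36. The size of that median thus rested on 1 library. EDS1, which acts upstream of salicylate, had -1.003 (SE 0.50, 95% interval -2.09 to 0.08), or -0.31 without the same library. At 2 h the list did not keep this sign: 7 of 12 genes were higher in bro1-1 than in WT, with a median log2 difference of 0.13.

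Early stress and touch genes were mixed. Their median interaction was -0.49 over 13 genes. At an unadjusted p under 0.05, 1 was positive and 2 were negative, against 3.77% and 2.17% of all genes. The negative ones were WRKY53 and TCH4, a touch-induced xyloglucan transferase, at -1.94 (SE 0.84, 95% interval -3.77 to -0.12). TCH4 stood at 187, 476 and 250.2 CPM in WT mock, 361, 325 and 711 in WT ABA 4 h, 203, 273 and 1107 in bro1-1 mock, and 241, 143 and 234 in bro1-1 ABA 4 h. The bro1-1 ABA libraries lay below the WT ABA libraries, and the highest library was bro1-1 mock replicate 3, without which the interaction of TCH4 was -0.79. CBF2, a cold-response factor, was the positive one, at 2.21 (SE 0.85, 95% interval 0.34 to 4.07), and its levels were 0.849, 2.02 and 2.51 CPM in WT ABA 4 h against 9.41, 5.87 and 3.16 in bro1-1 ABA 4 h.

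Other lists gave little. Of 8 heat shock genes 7 were positive with a median of 0.91, 0 at an unadjusted p under 0.05, and the median was 0.12 without bro1-1 ABA 4 h replicate 3. At 2 h 3 of these 8 were higher in bro1-1 than in WT, with a median log2 difference of -0.12. The 23 photosystem and Rubisco genes had 0.05 and 0 at an unadjusted p under 0.05, the near-identical members of the LHCB and RBCS families being hard to separate by counting. The 10 Aux/IAA genes had -0.37, with IAA2 at -0.64 (SE 0.27, 95% interval -1.22 to -0.06), and the 9 type-A response regulators, which answer cytokinin, 0.38, with ARR6 at 1.69 (SE 0.63, 95% interval 0.32 to 3.06). The whole 95% interval lay between -1 and 1 for 0 of 23 photosystem and 0 of 10 Aux/IAA genes. It did so for 1 of 8 heat shock genes and 2 of 9 response regulators, against 45.9% of all genes. Larger differences in the other members are thus not excluded by their intervals. The 10 BRO1-domain and ESCRT genes had -0.05, with 7 of 10 intervals between -1 and 1. AtBro1 alone had an unadjusted p under 0.05, with a negative value, against 2.17% of all genes. AMSH3, a deubiquitinase of the ESCRT pathway, was at 0.07 (SE 0.20, 95% interval -0.37 to 0.50).

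Root markers had the highest median of all lists, and they were measured beside every positive list above. All 6 tested had a positive interaction, against 53.5% of all genes, and 5 (83.3%) had an unadjusted p under 0.05, against 3.77%. Their median was 2.25. The count at an unadjusted p under 0.05 was 1 without WT mock replicate 1, WT ABA 4 h replicate 1, WT ABA 4 h replicate 3 or bro1-1 ABA 4 h replicate 2, in turn, and 2 to 5 without each other library. They had a median response of -1.14 in WT and 0.91 in bro1-1. LRX1, a cell wall protein of root hairs, was at 4.28, 2.88 and 1.93 CPM in WT mock, 0.849, 1.17 and 0.565 in WT ABA 4 h, 2.66, 0.72 and 1.44 in bro1-1 mock, and 1.99, 5.55 and 2.5 in bro1-1 ABA 4 h. CASP1, which marks the Casparian strip of the endodermis, had 1.88 (SE 0.78, 95% interval 0.17 to 3.60), and EXPA7, a root hair expansin, 2.29 (SE 0.93, 95% interval 0.25 to 4.33). Without WT mock replicate 1 CASP1 was at 1.14, and without bro1-1 ABA 4 h replicate 2 EXPA7 was at 1.46. PYK10, a root beta-glucosidase, stood at 2475, 1023 and 1332 CPM in WT mock, 938, 1178 and 1023 in WT ABA 4 h, 1740.1, 1353 and 1487 in bro1-1 mock, and 1432, 3015 and 2035 in bro1-1 ABA 4 h. The interaction of PYK10 was 1.15 (SE 0.50, 95% interval 0.05 to 2.25), or 0.70 without WT mock replicate 1.

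Summed over the 6 root markers other than PYK10, the level was 55.5, 19.7 and 13.7 CPM in WT mock, 6.49, 16.1 and 5.59 in WT ABA 4 h, 18.9, 8.82 and 28.2 in bro1-1 mock, and lastly 14.1, 40.9 and 24.8 in bro1-1 ABA 4 h. IRT1, the iron transporter, was at 0 in 2 of the 3 WT ABA 4 h libraries, and no other root marker tested was at 0 after ABA 4 h. In seedlings, fewer root cells and less of these transcripts per cell cannot be told apart. The part of root content in the positive interactions, among them the extensins HRGP1 and AT3G54580, was not tested. The photosystem list, which marks green tissue, had a median of 0.05, with 0 of 23 intervals between -1 and 1. The flower markers AP1, AP3 and AG were too low to be tested.

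A few genes differed between the genotypes whatever the treatment. PI4KGamma3, a phosphatidylinositol 4-kinase-like gene, was at 27, 24 and 18 CPM in WT mock and 25.7, 27 and 32.5 in WT ABA 4 h, while bro1-1 had 0.347, 0.24 and 0.517 at mock and 0.609, 1.25 and 0.943 after ABA. It was called lower in bro1-1 at mock (log2 -5.93) and after ABA 4 h (log2 -4.90), with an interaction of 1.04 (SE 0.43, 95% interval 0.11 to 1.97). MRD1 was called lower at both (-5.78 and -6.95) with an interaction of -1.17 (SE 0.64, 95% interval -2.56 to 0.22), or -0.30 without bro1-1 mock replicate 2. MRD1 overlaps HEI10 on the opposite strand of chromosome 1. HEI10 was not called, but every bro1-1 library lay below every WT library at mock (log2 -2.21) and after ABA 4 h (log2 -2.59). The counting was not stated to use strand, so it is unknown whether reads in the overlap of MRD1 and HEI10 were rightly split between them. AT1G75945, an uncharacterised gene, was called higher at both (5.45 and 3.52), with an interaction of -1.93 (SE 0.60, 95% interval -3.24 to -0.61).

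The remaining genes that the study chose on these libraries and followed by PCR are no independent evidence of a direction. Their list of 8 tested had a median interaction of 0.22, with 3 positive (GDA1, MBP1 and PI4KGamma3) and 1 negative (MIOX4) at an unadjusted p under 0.05. Over all genes these shares were 3.77% and 2.17%. As each library was left out, the list had 1 to 3 positive and 1 to 2 negative at that threshold. HEI10, a meiotic crossover factor, had -0.38 (SE 0.64, 95% interval -1.77 to 1.01) and -1.10 without WT mock replicate 2, RAV1 -0.36 (SE 0.29, 95% interval -0.99 to 0.26) and MAF5, a flowering repressor, 0.80 (SE 0.76, 95% interval -0.86 to 2.46). For RAV1, a repressor of growth, the levels after ABA 4 h were 50, 51.4 and 45.3 CPM in WT and 53.9, 30.5 and 40.2 in bro1-1, whereas at 2 h they were 125, 158 and 186 in WT and 57.6, 57.5 and 40.1 in bro1-1, with every bro1-1 library the lower.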

How the data were processed

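The deposited values were RSEM expected counts per gene, 1 table for each library. The authors trimmed reads with BBDUK2, removed ribosomal RNA reads with Bowtie2 (version 2.3.5.1) and counted with RSEM (version 1.2.30), without pooling replicates; the genome build and the use of strand are not given in the sources used here. The estimated counts, as deposited, were rounded to whole numbers. TPM values, which the authors deposited beside them from the same RSEM runs, entered no result.

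Genes were kept with filterByExpr, scaled by TMM and fitted over the 12 libraries with edgeR's quasi-likelihood test (version 4.0.16, R 4.3.3), with 1 coefficient for each of the 4 groups and no block. p-values were adjusted by Benjamini-Hochberg over all genes tested, and calls were made at under 0.05 with an absolute log2 value over 1. DESeq2 (version 1.42.0), the tool the authors used, and limma-voom (version 3.58.1) were alternatives, beside other filters, factors, a replicate block and each library left out. Fitting was tested on simulated data.

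Named genes were AtBro1 and AT1G17940, the DESeq2 calls, the 10 smallest p in each direction (at least 5 CPM, log2 over 1), calls between genotypes, up to 2 members of each list in each direction, and further list members that define the pathway (22, among them LOX2, PR1, CHS and PYK10, added with their values known), the study's panels, and the 5 most abundant genes changed alike in both genotypes. Members and lists were chosen with earlier results of these data known. Gene names and upstream sequences came from RefSeq's TAIR10.1.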

Additional observations from a re-analysis of the deposited data

Results flagged for a closer look

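The interaction of 5 genes passed an adjusted p of 0.05 in DESeq2, while edgeR gave each of them an adjusted p of 0.830. The DESeq2 values were 0.00167 for GDA1, 0.0466 for WRKY53, 0.0466 for MIOX4, 0.0479 for HRGP1 and 0.0494 for AT5G43180. In 4 other named genes every ABA 4 h library lay above every mock library in 1 genotype and below each in the other. Their edgeR interactions were 1.56 for CYP710A2, 1.53 for AT1G31710, -1.13 for AT1G27100 and 0.70 for AOC4, each with an adjusted p of 0.830. These genes were picked for that order of values, so the order is not itself a test. The search covered the named genes alone, so no share over all genes tested can be set beside it.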

How the results depend on the processing

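The number of genes called for the interaction was 0 in edgeR, 5 in DESeq2 and 0 to 2 as each library was left out, the 2 arising without bro1-1 ABA 4 h replicate 1 (the near-identical BGLU34 and BGLU35). Calls between the genotypes after ABA 4 h were 3, against 124 in DESeq2, 6 in limma-voom, 9 with all 18 libraries in 1 fit, 9 without WT mock replicate 2 and bro1-1 mock replicate 3, and 2 to 10 with each library left out, the 10 arising without WT ABA 4 h replicate 2 or bro1-1 ABA 4 h replicate 1. Positive interactions at an unadjusted p under 0.05 numbered 773, but 457 at 5 CPM or more and 431 (without bro1-1 ABA 4 h replicate 3) to 1417 (without WT ABA 4 h replicate 2). Negative ones numbered 445, but 1039 without those 2 mock libraries and 245 (without WT ABA 4 h replicate 1) to 1097 (without WT mock replicate 2). The salicylate median ran from -1.96 to -0.19, and that of the study's panel chosen by sequencing was 1.04 at 5 CPM or more, with a range of 0.06 to 0.33 over libraries left out. The medians nearest 0, those of PP2C, SnRK2, ABF, ABA target, photosystem, clock, ESCRT and the ABA genes followed by PCR, took either sign as each library was left out. EM1 ranged from -6.40 (without bro1-1 mock replicate 1) to 0.36 (without bro1-1 mock replicate 3) and turned to 0.34 without both mock libraries. The cause of the other changes was not tested. The list medians and the removal of 2 mock libraries were alternatives chosen after seeing the data. Counts of WT and bro1-1 responses stayed within 1.5 times of 4589 and 4738.

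With the replicate number as a block, 0 genes were called. Of 18 same-numbered pairs, whose deviations correlated from -0.376 to 0.529, 4 exceeded 0.1, so the numbers were not taken to pair the samples. Under the block 598 genes had a positive and 361 a negative interaction at an unadjusted p under 0.05. Depth limited genes under 1 CPM, whose median half-width was 2.14.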
